A study of Rattus norvegicus with 6 samples.

Results

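The MHC class II presentation genes of the rat were followed in nuclei of the colon that the study had assigned to T cells or to enterocytes. Of the 8 genes chosen by name, 6 had a row in both sets of count tables: Cd74, Ciita, RT1-Ba, RT1-Bb, RT1-Da and RT1-Db1. RT1-DMa and RT1-DMb, the chains of the exchange factor that loads peptide, had no row under these names and are not analysed here. The 6 genes are among 17388 genes listed for enterocytes and 15108 compared for T cells.

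The data were unique molecular identifier (UMI) counts from single nuclei RNA sequencing of flash-frozen colon of wildtype male Wistar rats. Sham rats drank water without dextran sulfate sodium (DSS) and were given no capsules. Placebo and PL8177 rats drank 5% DSS for 3 days, which injures the colon epithelium, and then took capsules without drug or with 50 µg PL8177, an agonist of the melanocortin 1 receptor. Capsules were given by gavage as a pair of doses 6 h apart on each of days 4 to 7. There were 6 tables, 1 for each cell type and treatment, and the start of each nucleus name gave 3 library tags per treatment: GR12, GR13 and GR15 in sham, GR22, GR23 and GR24 in placebo, and GR41, GR43 and GR44 in PL8177. The labels name no single rat. Each tag was therefore taken as the library of 1 rat, and p-values measure only the spread between these libraries.

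MHC class II molecules are pairs of an alpha and a beta chain that carry peptides from engulfed material to the surface, where CD4+ T cells read them. In the rat the RT1-B and RT1-D molecules do this, Cd74 (the invariant chain) escorts them and guards their peptide groove, and Ciita is the transactivator that switches the whole group on. Dendritic cells, B cells and macrophages carry the molecules at rest, while epithelial cells of the gut can gain them under interferon gamma.

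The tables held 9800 nuclei, 1018 labelled as T cells and 8782 as enterocytes. The T cell libraries held 19 to 685 nuclei and 8070 to 779009 UMIs. Enterocyte libraries held 304 to 1531 nuclei and 319125 to 4123319 UMIs. The median nucleus had 742.5 UMIs in the T cell tables and 1085 in the enterocyte tables. Of 9790 distinct barcodes, 10 occurred in more than 1 library or cell type, and 0 occurred in both cell types of the same library. The T cell table of placebo library GR23 stood apart. It held 685 of the 1018 nuclei, its summed T cell markers were at 1.39 UMIs per 10000 UMIs against 19.2 to 39.0 in the other 8 T cell libraries, and its enterocyte markers were at 207 against 20.5 to 85.5. Many of the pooled T cell values are also given without this library.

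Ciita acts through factors bound to the X and Y boxes of class II promoters, Cd74 and the DM genes included, so these stretches are shown for the 4 chain genes measured, in which a match was found. Promoters from RefSeq (build GRCr8, 250 bases before to 50 bases after the gene start) were found for 6 of the 8 genes. GRCr8 is not the build on which the counts were made, and its coordinates serve for these sequences only. Capitals mark the letters CTGATTGG, here called the Y box and the site that the factor NF-Y reads, and the letters GCAACNG, here called the X box core and part of the site that the RFX factors read. Both were searched on both strands, their letters were picked after the promoters had been read, and each sequence is 88 bases long.
RT1-Ba, chr20:4576951-4577038, plus strand: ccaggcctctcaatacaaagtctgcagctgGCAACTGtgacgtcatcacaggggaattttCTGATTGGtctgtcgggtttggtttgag
RT1-Bb, chr20:4604155-4604242, minus strand: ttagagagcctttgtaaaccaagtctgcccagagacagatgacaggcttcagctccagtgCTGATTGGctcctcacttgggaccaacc
RT1-Da, chr20:4515303-4515390, plus strand: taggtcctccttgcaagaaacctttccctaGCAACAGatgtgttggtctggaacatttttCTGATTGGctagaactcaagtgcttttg
RT1-Db1, chr20:4560218-4560305, minus strand: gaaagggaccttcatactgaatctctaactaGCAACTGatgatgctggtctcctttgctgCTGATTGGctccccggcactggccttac

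All 4 chain gene promoters held the Y box, starting 46 (RT1-Ba), 64 (RT1-Bb), 52 (RT1-Da) and 83 (RT1-Db1) bases before the gene start. The X box core lay 23 bases ahead of it in RT1-Ba, 23 in RT1-Da and 22 in RT1-Db1. No match to these exact letters was found in RT1-Bb, which does not mean that this promoter lacks an X box. The promoters of Cd74 and RT1-DMa held neither string in this window, which says only that these exact letters are not there. Among 33469 promoters of the same length, 1172 (3.5%) held the Y box, 4084 (12.2%) the X box core and 132 (0.394%) both. Since the letters were picked after the promoters had been read, the shares of all promoters are no test of the matches. A match is a description of the sequence and no measure of binding.

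The first comparison asked how the 6 genes differ between nuclei labelled T cells and nuclei labelled enterocytes of the same library. All 6 were higher in the T cell tables. The fold changes ran from 3.44 to 5.55 on the log2 scale, and the 6 genes together took 3.83 of every 10000 UMIs in the T cell tables against 0.151 in the enterocyte tables. Without GR23 the T cell value was 6.51. These sums mix the share of nuclei that hold a gene with the UMIs per nucleus, and both are given separately after the levels.

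Cd74, the invariant chain, was at 0.381 to 4.10 UMIs per 10000 in the 9 T cell libraries, with a median of 1.47. In the enterocyte libraries it was at 0.0112 to 0.345, with a median of 0.0354. The T cell value was the higher of the pair in 9 of 9 libraries, and the lowest T cell library lay above the highest enterocyte library. That lowest value, in sham library GR15, was 1 UMI in 27 nuclei, so the full separation hangs on 1 UMI. Sham library GR13 also held 1 Cd74 UMI, in 19 T cell nuclei. The mean was 1.92 ± 1.34 against 0.0840 ± 0.106 (SD, n = 9), and the log2 fold change was 4.24 (SE 0.44, edgeR quasi-likelihood test with the library as a block, adjusted p = 2.04e-14).

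Ciita, the transactivator, spanned 0 to 3.72 UMIs per 10000 in the T cell libraries with a median of 1.23. In the enterocyte libraries it spanned 0.00253 to 0.157 with a median of 0.0189. It was higher on the T cell side in 8 libraries and lower in 1, the sham library GR15, whose 27 T cell nuclei held 0 UMIs, which allows up to 1.14 UMIs per 10000. The log2 fold change was 4.93 (SE 0.49, edgeR, adjusted p = 1.77e-15).

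RT1-Ba, the alpha chain of the RT1-B molecule, had the largest fold of the 6, at 5.55 (SE 0.59, edgeR, adjusted p = 4.34e-14). Its level ran from 0 to 2.93 UMIs per 10000 in T cell libraries (median 1.24) and from 0 to 0.0445 in enterocyte libraries (median 0.0121). It was higher in 8 libraries and equal at 0 in sham library GR15. Its partner RT1-Bb, the beta chain, ran from 0 to 2.80 (median 0.489) against 0 to 0.0904 (median 0.0228). RT1-Bb was higher in 7 libraries and lower in 2, both sham T cell libraries at 0 UMIs, and its log2 fold change was 4.01 (SE 0.59, edgeR, adjusted p = 1.04e-08).

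RT1-Da, the alpha chain of the RT1-D molecule, was at 0 in 4 of 9 T cell libraries and reached 1.49 UMIs per 10000 in placebo library GR22, against 0 to 0.0627 in enterocytes. The 4 libraries at 0 allow up to 0.497 to 3.72 UMIs per 10000, which is above most measured values, so an absence of RT1-Da was not detectable at this depth. RT1-Da had a log2 fold change of 3.44 (SE 1.25, edgeR, adjusted p = 0.0216) and was higher in 5 libraries, equal in 2 and lower in 2. RT1-Db1, a beta chain, ran from 0 to 3.33 (median 0.596) against 0 to 0.0339 (median 0.0189) and was higher in 6 libraries, equal in 1 and lower in 2. Its log2 fold change was 5.00 (SE 0.69, edgeR, adjusted p = 1.31e-09). The paralog RT1-Db2 is close in sequence, and how the counting split reads between them is not given in the sources used here, so RT1-Db1 values are uncertain.

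All 6 genes thus passed the test, where 3112 of 8013 genes (38.8%) did in the same fit, 1304 of them (16.3%) higher in the T cell tables. Without GR23 the 6 genes still passed, with a fold of 4.46 for Cd74, 5.30 for Ciita and 3.59 for RT1-Da (edgeR, adjusted p = 0.0141). The calls of 3 chains rested on sham library GR12, since the other sham T cell libraries held 0 UMIs of them. Without GR12 the folds of RT1-Bb, RT1-Da and RT1-Db1 could not be estimated, with SEs of 72.9, 10070 and 325 and edgeR adjusted p = 0.999, 1 and 1. RT1-Da could likewise not be estimated without PL8177 library GR41 (SE 38.0, edgeR, adjusted p = 0.989), and it was not called without placebo library GR22 (2.71, edgeR, adjusted p = 0.0588).

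**Figure D1:**
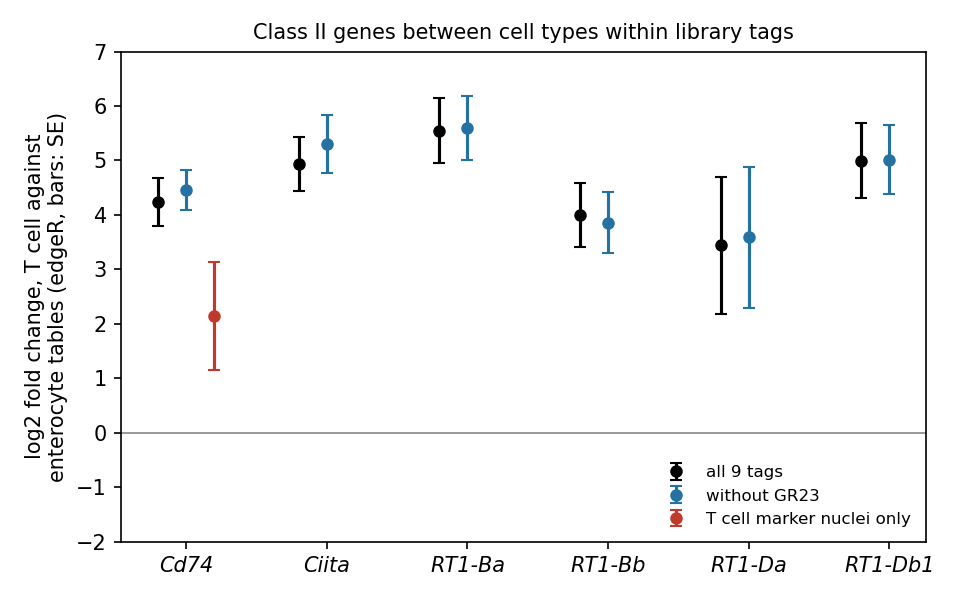
Log2 fold change of each class II gene, T cell against enterocyte tables, by edgeR with the library as a block (bars, SE), for all 9 libraries, without GR23, and for T cell marker nuclei only. All 6 genes sit between 3.44 and 5.55 with all libraries, and Cd74, the only gene tested in T cell marker nuclei, sits at 2.15.

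The summed level of the 6 genes was higher in the T cell table than in the enterocyte table of every library. The ratio was 3.34 in GR23, 3.78 in GR15, 19.9 in GR12, 25.6 in GR44, 26.9 in GR24, 46.4 in GR13, 74.8 in GR43, 134 in GR22 and 558 in GR41. The highest ratio rests on 4 enterocyte UMIs and the one of GR15 on 1 T cell UMI. The libraries with the smallest ratios were the one with the weakest T cell markers and one with 27 T cell nuclei. The number of T cell nuclei did not order the ratios, with 19 nuclei in GR13, 22 in GR41, 26 in GR22, 27 in GR15 and 39 in GR43.

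**Figure D2:**
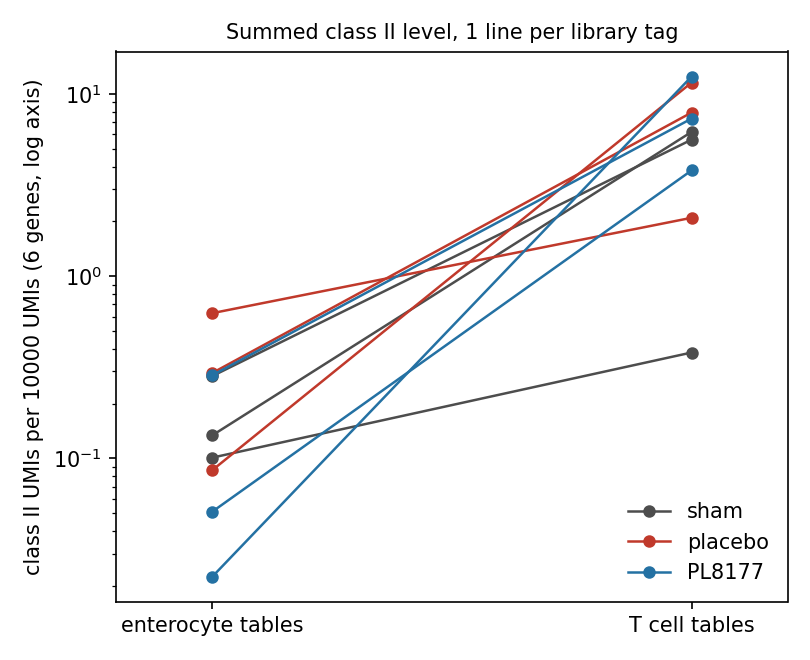
Summed UMIs of the 6 class II genes per 10000 UMIs (log axis) in the enterocyte and T cell tables, with 1 line per library coloured by treatment. Every line rises, from 0.0224 to 0.627 on the enterocyte side to 0.381 to 12.5 on the T cell side, and the treatments lie among each other on both sides.

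Detection per nucleus followed the same order. At least 1 UMI of any of the 6 genes was found in 144 of 1018 T cell nuclei (14.1%, exact 95% interval 12.1 to 16.4) and in 232 of 8782 enterocyte nuclei (2.64%, 2.32 to 3.00), although enterocyte nuclei were deeper. Intervals and limits cover counting error only. After each nucleus was thinned to 300 UMIs, which left out 63 T cell and 562 enterocyte nuclei, the shares were 63 of 955 (6.60%) and 55 of 8220 (0.669%). Without GR23 the unthinned T cell share was 22.8% and the enterocyte share 2.52%.

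Among single genes, Cd74 was found in 84 T cell nuclei (8.25%, exact 95% interval 6.63 to 10.1) and 94 enterocyte nuclei (1.07%, 0.866 to 1.31). Ciita was found in 59 (5.80%) and 29 (0.330%). RT1-Ba was found in 37 (3.63%) and 21 (0.239%). For these, as for the other chains, the exact intervals of both cell types lay apart. These intervals pool nuclei over libraries and do not measure the spread between libraries. RT1-Db1 was found in 31 (3.05%) and 22 (0.251%), RT1-Bb in 30 (2.95%) and 48 (0.547%), and RT1-Da in 22 (2.16%) and 29 (0.330%). Without GR23 the T cell shares were higher for every gene, at 13.8% for Cd74, 9.91% for Ciita, 8.71% for RT1-Ba, 7.21% for RT1-Db1, 6.31% for RT1-Bb and 4.80% for RT1-Da. Neither cell type can be taken to lack these genes, so a share from free RNA could not be read from them. Summed T cell markers, which enterocytes should lack, were at 0.130 to 0.658 UMIs per 10000 in the enterocyte libraries.

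A nucleus that held these genes held more of them in the T cell tables. The mean number of UMIs per nucleus with the gene was 2.13 for Cd74, 1.80 for Ciita, 1.76 for RT1-Ba, 1.97 for RT1-Bb, 1.36 for RT1-Da and 1.68 for RT1-Db1. In enterocyte nuclei it was 1.00 to 1.07 for every gene. Of the 232 enterocyte nuclei with any class II UMI, 213 (91.8%) held exactly 1, and the highest held 4. Of the 144 such T cell nuclei, 62 held 2 or more, and the highest, in placebo library GR22, held 45.

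The class II UMIs of the T cell tables sat in few nuclei. Of 491 UMIs, 197 (40.1%) came from the 10 highest nuclei and 301 (61.3%) from 31 nuclei in which 3 or more of the 6 genes were found. Without GR23 these shares of 328 UMIs were 50.9% and 70.1%. All 6 genes were found in 6 nuclei, which held 133 UMIs (27.1%). Enterocytes had no such nuclei. There, 221 nuclei with 1 gene held 90.2% of 254 UMIs, 11 nuclei with 2 genes held 9.84%, and 0 of 8782 nuclei held 3 or more, which allows a share of up to 0.0342%.

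**Figure D3:**
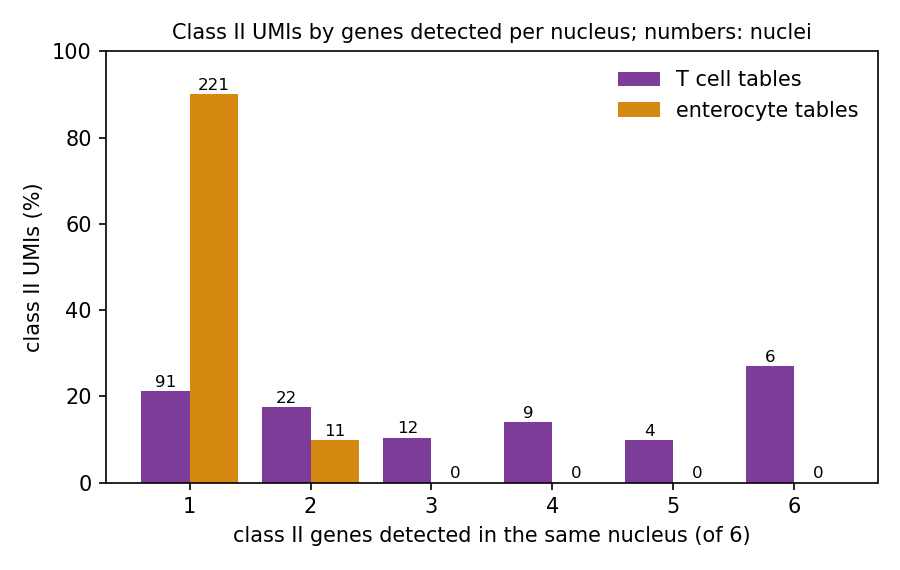
Share of all class II UMIs (%) held by nuclei in which 1 to 6 of the 6 genes were found, for T cell and enterocyte tables, with the number of nuclei above each bar. Nuclei with 3 or more genes hold 61.3% of the UMIs in the T cell tables and none in the enterocyte tables.

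Partner genes were found in the same T cell table nuclei. Of 22 nuclei with RT1-Da, 14 (63.6%) also held its partner RT1-Db1, against 1.71% of the nuclei without RT1-Da. Of 37 nuclei with RT1-Ba, 13 (35.1%) held its partner RT1-Bb, against 1.73% of the others. The invariant chain was found in most chain-positive nuclei, 26 of 37 (70.3%) with RT1-Ba, 22 of 30 (73.3%) with RT1-Bb, 16 of 22 (72.7%) with RT1-Da and 22 of 31 (71.0%) with RT1-Db1. Ciita was looser, with 24 of its 59 nuclei (40.7%) holding Cd74 against 6.26% of the others. Nuclei of 1 library share their tissue and depth, and these shares are a description over nuclei with no test. Without GR23 the share was 12 of 16 (75.0%) for RT1-Db1 in nuclei with RT1-Da, 11 of 29 (37.9%) for RT1-Bb in nuclei with RT1-Ba and 17 of 33 (51.5%) for Cd74 in nuclei with Ciita, and Cd74 was found in 72.4% to 87.5% of the nuclei with each chain. In enterocytes the most frequent pair, Cd74 with RT1-Ba, was found in 4 nuclei.

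The 31 nuclei with 3 or more genes were spread over 7 of 9 T cell libraries. Sham library GR12 held 10, placebo libraries GR23, GR24 and GR22 held 6, 5 and 3, and PL8177 libraries GR43, GR41 and GR44 held 4, 2 and 1. GR13 and GR15, the other sham libraries, held 0. As a share this was 10 of 120 sham nuclei (8.33%, exact 95% interval 4.07 to 14.8), 7 of 96 PL8177 nuclei (7.29%, 2.98 to 14.4) and 14 of 802 placebo nuclei (1.75%, 0.958 to 2.91), and 685 of the placebo nuclei came from GR23. Without GR23 the placebo share was 8 of 117 (6.84%, 3.00 to 13.0). The sham count came from 1 library, so no order of the treatments was read from these shares.

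The labels were then set against markers. A nucleus in which T cell markers had 1 UMI or more, and enterocyte markers had no greater number, was called a T cell marker nucleus. There were 186 of them among the 1018 nuclei, 17 of the 685 in GR23. They held 71 of the 491 class II UMIs (14.5%), namely 23 of Cd74, 15 of Ciita, 10 of RT1-Ba, 10 of RT1-Db1, 7 of RT1-Bb and 6 of RT1-Da. The share with any class II UMI was 24 of 186 (12.9%, exact 95% interval 8.45 to 18.6) against 120 of 832 (14.4%, 12.1 to 17.0) in the other nuclei of these tables.

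GR23 set that likeness. Without it, 22 of 169 T cell marker nuclei (13.0%) and 54 of 164 other nuclei (32.9%) held a class II UMI, and the summed level was 2.23 against 9.39 UMIs per 10000. In GR23 itself 26 class II UMIs came from 2 of the 17 T cell marker nuclei. The level in T cell marker nuclei was 3.22 in GR12, 4.51 in GR13, 4.01 in GR44, 1.39 in GR41, 0.652 in GR22 and 0.619 in GR24, and it was 0 in GR15 and GR43. Of the 31 nuclei with 3 or more genes, 5 were T cell marker nuclei. In the comparison with enterocytes, Cd74 was the only 1 of the 6 genes that passed the count filter when the T cell side was limited to these nuclei, and its log2 fold change was 2.15 (SE 0.99, edgeR, adjusted p = 0.0579).

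Several marker lists moved with the class II genes, those of other antigen-presenting cells among them. In the 62 T cell table nuclei with 2 or more class II UMIs, summed dendritic cell markers were at 5.13 UMIs per 10000, against 0.397 in the 874 nuclei with 0. Macrophage markers were at 11.0 against 3.57, and B cell markers at 9.61 against 3.05. Enterocyte markers were at 42.8 against 158. Lists of other cell types were higher too, at 5.24 against 1.91 for crypt, 1.19 against 0.417 for fibroblast, 6.21 against 3.63 for goblet, 2.54 against 1.76 for smooth muscle, 0.972 against 0.356 for tuft, 0.486 against 0.204 for enteroendocrine and 0.486 against 0.142 for endothelial markers. Plasma cell markers were at 1.62 against 1.85 and innate lymphoid or NK cell markers at 1.40 against 1.35. In the first group 5 of 7 dendritic cell markers, 10 of 11 macrophage markers and 11 of 11 B cell markers with a row were found, with Ccr7, Siglech and Cd14 at 0. The median depth was 1467 UMIs in the first group and 712.5 in the second.

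Of the 874 nuclei with 0 class II UMIs, 617 came from GR23, and several of these gaps were narrower without that library. Dendritic cell markers were then at 5.05 UMIs per 10000 in 43 nuclei with 2 or more class II UMIs against 0.991 in 257 nuclei with 0. Macrophage markers were at 11.9 against 3.10 and B cell markers at 11.4 against 3.26. Enterocyte markers were at 24.5 against 41.5, crypt markers at 5.65 against 4.16, goblet markers at 7.65 against 5.98 and tuft markers at 0.665 against 0.448. The order of smooth muscle markers (0.997 against 1.57), plasma cell markers (1.53 against 1.15), innate lymphoid or NK cell markers (1.73 against 3.90) and T cell markers turned without GR23. The median depth was 1834 and 668 UMIs.

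Depth was then made equal by thinning to 300 UMIs. A macrophage marker was then found in 29.5% of 61 nuclei with 2 or more class II UMIs against 7.47% of 817 nuclei with 0, and a dendritic cell marker in 18.0% against 1.59%. B cell markers came to 9.84% against 9.06%, a difference of under 1 nucleus in the smaller group. Goblet markers came to 9.84% against 5.39%, smooth muscle markers to 8.20% against 5.51%, crypt markers to 6.56% against 5.02% and tuft markers to 1.64% against 1.22%. Fibroblast, endothelial and enteroendocrine markers came to 0% against 1.22%, 0.979% and 1.10%. Enterocyte markers came to 59.0% against 82.6%. Without GR23, the thinned shares were 32.6% against 3.45% for macrophage, 18.6% against 3.88% for dendritic cell, 9.30% against 8.62% for B cell markers, 55.8% against 51.7% for enterocyte, 14.0% against 12.9% for goblet, 6.98% against 4.74% for smooth muscle and 4.65% against 11.2% for crypt markers. The part of these cell types in the class II levels was not tested.

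T cell markers had opposite orders pooled and within libraries. Pooled, they were at 19.2 UMIs per 10000 in nuclei with 2 or more class II UMIs and 13.0 in those with 0. Without GR23 they were at 23.5 and 37.6. Within each of the 8 libraries that had nuclei of both kinds, they were lower in the nuclei with 2 or more (0 to 28.6, against 1.54 to 53.3 over the 9 libraries in those with 0). Macrophage markers were higher in 7 of these 8 libraries (0 to 87.2 against 1.16 to 8.10), dendritic cell markers in 5 (0 to 48.5 against 0.119 to 3.04) and B cell markers in 3, with 4 lower (0 to 14.5 against 0 to 5.29). Innate lymphoid or NK cell markers were lower in 8 of 8 (0 to 2.06 against 0.164 to 5.69). The nuclei with 2 or more class II UMIs numbered 21 in GR12, 19 in GR23 and 7 in GR24. There were 4 each in GR22, GR41 and GR43, 2 in GR44 and 1 in GR13. Most of these library values thus rest on few nuclei, where a sparse list can be at 0 for lack of counts.

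**Figure D4:**
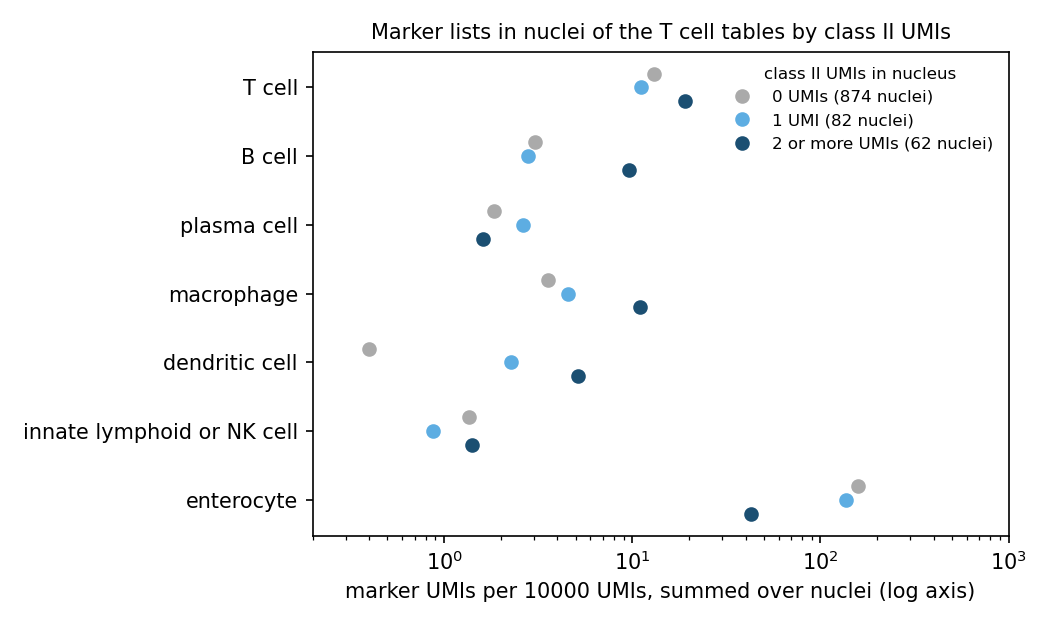
Summed UMIs of each marker list per 10000 UMIs (log axis) in T cell table nuclei with 0, 1 or at least 2 class II UMIs, pooled over the 9 libraries. Dendritic cell markers stand at 0.397, 2.27 and 5.13, macrophage markers at 3.57, 4.53 and 11.0, and enterocyte markers at 158, 136 and 42.8.

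Single markers were also counted by nucleus. Wdfy4, which dendritic cells need for cross-presentation, was found in 25 of the 62 nuclei with 2 or more class II UMIs and in 16 of the 874 nuclei with 0. Csf1r, the receptor for the macrophage growth factor, was found in 14 and 5, and C1qa, a complement subunit made by macrophages, in 16 and 8. Bank1, a B cell scaffold protein, was found in 11 and 9. The T cell adaptor Skap1 was found in 12 and 162, and Themis, which acts in T cell development, in 6 and 85. Without GR23, Wdfy4 was found in 19 of 43 and 13 of 257 nuclei, Csf1r in 11 and 4, C1qa in 13 and 4, Bank1 in 11 and 6, Skap1 in 11 and 136, and Themis in 6 (14.0%) and 72 (28.0%). At least 1 marker of macrophages or dendritic cells was found in 28 of the 31 nuclei with 3 or more class II genes (90.3%), against 204 of the 874 nuclei with none (23.3%). T cell markers were present in 11 of those 31 nuclei (35.5%) and in 253 of those 874 (28.9%). Without GR23 the macrophage or dendritic cell markers were found in 22 of 25 (88.0%) against 45 of 257 (17.5%), and T cell markers in 10 of 25 (40.0%) against 195 of 257 (75.9%). These shares are not at equal depth, with a median of 1640 UMIs in the 31 nuclei and 712.5 in the 874. After thinning to 300 UMIs, 36.7% of 30 such nuclei held a macrophage marker against 7.47% of 817. For dendritic cell markers this was 26.7% against 1.59%, and for T cell markers 16.7% against 20.3%. In nuclei with 2 or more class II UMIs (61 after thinning), T cell markers came to 13.1%. With GR23 set aside, the thinned T cell marker shares were 18.6% (43 nuclei with 2 or more) and 56.5% (232 nuclei with 0).

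The genes that led these nuclei, other than the class II genes, were named by the largest pooled ratio of nuclei with 2 or more class II UMIs to nuclei with 0, among genes with at least 20 UMIs in the former from at least 3 libraries. Cd83, a surface protein of mature dendritic cells, led with a log2 ratio of 5.68 (29 against 3 UMIs, in 12 nuclei of 4 libraries). Clec4a2 (a myeloid lectin receptor) and Il22ra2 (the soluble trap for interleukin 22) each stood at 4.93. Bcat1, Fgd2, AABR07066752.1, Lrrk2, Npl and Arhgap22 followed at 4.91 to 4.55. Fgd2 was the most widely found of those named, in 23 nuclei of 6 libraries. These ratios pool nuclei, with most of the nuclei at 0 from GR23, and carry no test.

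The same lists were summed in the enterocyte nuclei. Dendritic cell markers were at 0.0830 UMIs per 10000 in the 8550 nuclei with 0 class II UMIs and at 0.0885 in the 213 with 1, and enterocyte markers were at 218 and 223. Fibroblast markers were at 0.205 and 0.372, enteroendocrine markers at 0.0867 and 0.142, and macrophage markers at 3.01 and 2.71. The 213 nuclei were deeper, with a median of 1609 against 1073 UMIs. In the 19 nuclei with 2 or more, dendritic cell markers were at 0.377 (5 UMIs in 2 nuclei) against 0.0830, T cell markers at 1.06 against 0.342, goblet markers at 6.56 against 1.56 and enterocyte markers at 166 against 218, at a median of 2237 UMIs. After thinning, 0 of 18 such nuclei held a dendritic cell or a T cell marker, and 16.7% held a macrophage marker, which is 3 nuclei.

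The next comparisons asked whether sham or PL8177 differed from placebo in these genes within a cell type. Sham differed from placebo by DSS and by the capsules, which cannot be told apart. No member passed the test in any of these comparisons. In T cells, Cd74 and Ciita passed the count filter and the 4 chains did not. Cd74 was at 2.13, 1.24 and 0.381 UMIs per 10000 in sham (GR12, GR13, GR15), at 4.10, 0.886 and 2.64 in placebo (GR22, GR23, GR24) and at 3.74, 0.662 and 1.47 in PL8177 (GR41, GR43, GR44). The ranges overlapped. Against placebo the log2 fold change was -0.81 (SE 0.74, edgeR, adjusted p = 0.965) in sham and -0.50 (SE 0.76, edgeR, adjusted p = 0.999) in PL8177. With each library left out in turn these ran from -2.11 (without GR12) to -0.40 (without GR22) and from -1.43 (without GR41) to -0.03 (without GR43). With nuclei of at least 500 genes they were -0.40 and 0.28, so the direction for PL8177 turned.

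Ciita was at 1.23, 3.72 and 0 UMIs per 10000 in sham, at 0.559, 0.590 and 1.32 in placebo and at 2.49, 0.662 and 2.44 in PL8177. All 3 PL8177 values were above the lower 2 placebo values, and the highest placebo value lay between them. Its log2 fold change was 0.41 (SE 0.97, edgeR, adjusted p = 0.991) in sham and 0.94 (SE 0.95, edgeR, adjusted p = 0.999) in PL8177. The sham value turned to -0.14 without GR13 and was 0.95 without GR15. The edgeR fit called 0 of 1828 genes (0%) in either comparison, DESeq2 also called 0, and at an unadjusted p under 0.05 edgeR listed 90 genes (4.92%) for sham and 18 (0.985%) for PL8177, with neither member among them.

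The chains of the T cell tables are given by their share of nuclei. RT1-Ba was found in 12.8% ± 4.78 of PL8177 nuclei, 6.07% ± 5.21 of placebo nuclei and 5.36% ± 5.41 of sham nuclei (SD, n = 3). RT1-Bb was found in 5.69% ± 3.15, 5.57% ± 3.68 and 3.15% ± 5.46, and RT1-Db1 in 5.59% ± 4.90, 6.02% ± 5.28 and 4.95% ± 8.58. RT1-Da was found in 1.52% ± 2.62, 5.60% ± 5.43 and 3.60% ± 6.24. No sham or PL8177 range of these 4 chains lay apart from placebo, where among genes with 10 to 300 UMIs the shares lay apart and lower in 0.6% for sham and 3.55% for PL8177, and apart and higher in 1.91% and 1.84%. The summed level of the 6 genes in T cell tables was 4.07 ± 3.20 UMIs per 10000 in sham, 7.19 ± 4.77 in placebo and 7.87 ± 4.36 in PL8177 (SD, n = 3), and these neighbours in order differed by less than their spread. Without GR23 the placebo mean was 9.73, above that of PL8177.

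In enterocytes Cd74 was the only member that passed the count filter. It was found in 4.09%, 0.121% and 0.141% of sham nuclei (GR12, GR13, GR15), in 0.965%, 3.62% and 1.22% of placebo nuclei (GR22, GR23, GR24) and in 0.197%, 0.392% and 0.739% of PL8177 nuclei (GR41, GR43, GR44). Every PL8177 library lay below every placebo library, while sham spanned both through GR12. The mean share was 0.443% ± 0.275 in PL8177 and 1.94% ± 1.46 in placebo (SD, n = 3). The exact two-sided permutation test gave p = 0.1, the smallest that 3 against 3 allows.

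RT1-Da and RT1-Db1 had the same order. RT1-Da was found in 0%, 0.0653% and 0.123% of PL8177 nuclei and in 0.297%, 0.658% and 0.612% of placebo nuclei. In GR41 it was found in 0 of 1016 nuclei, which allows a share of up to 0.295%. RT1-Db1 was found in 0%, 0.131% and 0.246% of PL8177 nuclei and in 0.297%, 0.329% and 0.459% of placebo nuclei. These rest on 2 and 4 UMIs in PL8177 and 14 and 11 in placebo, and the exact permutation test gave p = 0.1 for each. RT1-Ba, RT1-Bb and Ciita overlapped between PL8177 and placebo.

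The 3 of 6 members that lay apart and lower in PL8177 enterocytes compare with 5.74% of the 7077 genes with 10 to 300 UMIs. In sham enterocytes 0 of 6 lay apart from placebo, against 4.15% of these genes lower and 1.74% higher. With libraries left out this sham count ran from 0 to 3, and the share of all genes was not counted for fewer libraries. Without GR12 the sham shares of Cd74, RT1-Da and RT1-Db1 lay below all placebo shares. Over the 24 such comparisons of members, cell types and treatments the smallest Benjamini-Hochberg adjusted p was 0.8. After thinning to 300 UMIs, 0 of the 6 lay apart in PL8177 enterocytes, and the share of all genes was not counted for thinned nuclei. As levels per 10000 UMIs, 0 of the 24 comparisons lay apart, against 15% (sham) and 14.5% (PL8177) of such genes in enterocytes and 7.13% and 7.66% in T cells, and the smallest exact permutation p was 0.2. The members are not independent of each other, since they share libraries.

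**Figure D5:**
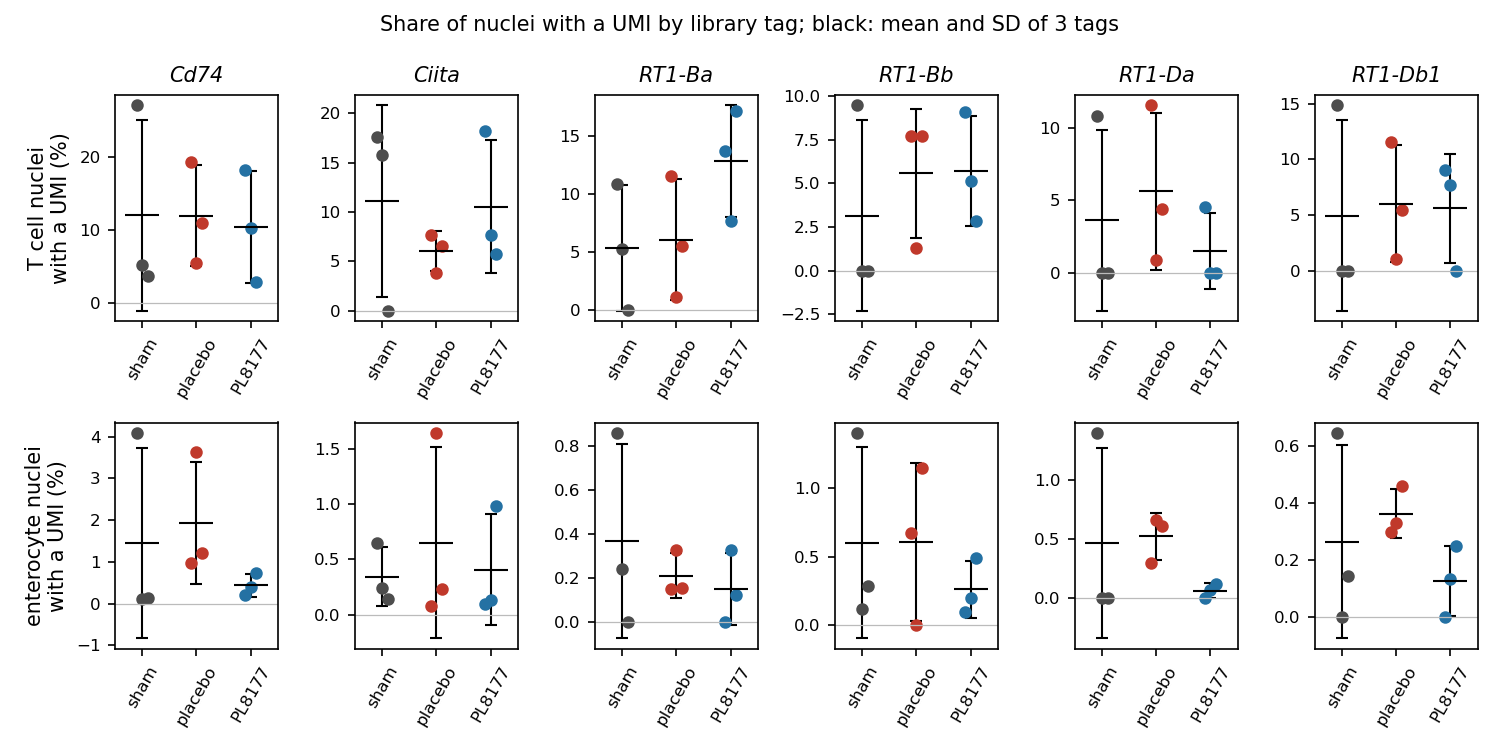
Share of nuclei (%) with a UMI of each class II gene by treatment, in the T cell tables (top) and the enterocyte tables (bottom), with 1 point per library and the mean and SD of 3 in black. In enterocytes the PL8177 points of Cd74, RT1-Da and RT1-Db1 lie below all placebo points, and the sham points of Cd74 range from 0.121% to 4.09%.

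The fit on sums gave Cd74 in enterocytes a log2 fold change of -1.86 (SE 0.98, edgeR, unadjusted p = 0.0803, adjusted p = 0.610) in PL8177 against placebo. With each library left out in turn it ran from -2.62 (without GR44) to -1.03 (without GR23). In sham against placebo it was -0.44 (SE 0.90, edgeR, adjusted p = 0.875), and it ran from -2.20 without GR12 to 0.38 without GR23 and was 0.063 with nuclei of at least 500 genes. The edgeR fit called 0 of 9424 genes (0%) in both comparisons and listed 871 (9.24%) and 1172 (12.4%) at an unadjusted p under 0.05. DESeq2 called 50 and 107 genes and gave Cd74 no adjusted p in either. Its fold for Cd74 was -1.96 in PL8177 (DESeq2, unadjusted p = 0.0410) and -0.93 in sham (DESeq2, unadjusted p = 0.333). For PL8177, 743 of 9420 genes were under 0.05 unadjusted with DESeq2. The summed level in enterocytes was 0.172 ± 0.0969 UMIs per 10000 in sham, 0.336 ± 0.273 in placebo and 0.120 ± 0.145 in PL8177 (SD, n = 3), with overlapping libraries.

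In the unthinned shares the spread of sham enterocytes came from GR12. That library held 90 of the 101 class II UMIs of sham enterocytes, and 79 of its 929 nuclei (8.50%, exact 95% interval 6.79 to 10.5) held at least 1. GR13 and GR15 were at 0.726% and 0.706%. GR12 was also the deepest enterocyte library by nucleus, with a median of 2331 UMIs against 437 and 520, and after thinning its share was 1.19% against 0.147% and 0.658%.

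Whether a treatment difference itself differed between the cell types was tested for the 6 members in both treatments. The edgeR interaction called 0 of 12, as it called 0 of 8013 genes (0%) with either edgeR or DESeq2, and 550 (6.86%) and 337 (4.21%) genes were at an unadjusted p under 0.05. Among the members RT1-Bb for sham came closest, at a log2 difference of -2.73 (SE 1.26, edgeR, adjusted p = 0.655). It was -1.57 without GR22, -4.06 without GR24 and -9.54 (SE 4.50) without GR12, it was -1.09 with nuclei of at least 500 genes and -1.89 without the block, and it was called in none of these (edgeR, adjusted p = 0.261 to 1 with libraries left out).

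The wider class II pathway was read from a list of 49 genes that includes Cd74 and Ciita, of which 42 had a row. Between cell types 33 were tested, 11 were higher in the T cell tables and 9 lower, and the median log2 fold change was -0.04 against -0.14 over all 8013 genes. The 20 called of 33 (60.6%) and 11 higher (33.3%) stand beside 38.8% and 16.3% of all genes. Besides the members the most certain higher genes were Cd4, the T cell coreceptor that binds class II and one of the T cell markers used here (6.10, edgeR, adjusted p = 1.33e-08), Cd274, the ligand PD-L1 (3.95, edgeR, adjusted p = 5.31e-08), and RT1-DOa, a chain of the brake on peptide exchange (3.38, edgeR, adjusted p = 1.36e-07). The most certain lower genes were the lysosomal proteases Ctsb (-2.04, edgeR, adjusted p = 9.59e-07) and Ctsl (-3.31, edgeR, adjusted p = 1.05e-06) and March8, a ubiquitin ligase of surface proteins (-1.41, edgeR, adjusted p = 0.000264).

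By role, 4 of 10 loading and exchange genes tested were higher and 4 lower, 2 of 8 transcription genes were higher and 0 lower, 2 of 8 interferon gamma genes were higher and 2 lower, and 3 of 7 turnover and partner genes were higher and 3 lower. The transcription genes that were higher were Ciita and Rfx5, a subunit of the complex that binds the X box (1.23, edgeR, adjusted p = 0.0210). In the treatment comparisons edgeR tested 13 genes of the list for T cells, 30 for enterocytes, and called 0. Unadjusted, 4 of the 30 enterocyte genes (13.3%) passed 0.05 for sham, near the 12.4% of all genes, and 1 of 30 (3.33%) for PL8177, under the 9.24% of all genes. In T cells 1 of 13 (7.69%) passed for sham and 0 for PL8177, beside 4.92% and 0.985% of all genes tested.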

How the data were processed

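Per the labels, nuclei of flash-frozen colon were captured with the 10x Genomics 3′ Next GEM v3.1 kit. The authors counted UMIs with Cell Ranger 6.0.1 on the rat genome Rnor 6.0 with introns included, removed empty droplets with CellBender, dropped genes seen in fewer than 3 cells, required 200 genes and less than 5% mitochondrial reads per nucleus, and named cell types from Seurat 4.0.3 clusters. The deposited values are whole UMI counts per gene and nucleus, not normalized. For placebo T cells the last line (1 gene) was incomplete and dropped, which left 15108 genes for all T cell comparisons. All columns of nuclei were mapped to a tag.

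Counts were summed per library tag and cell type and tested by the quasi-likelihood functions of edgeR 4.0.16 (R 4.3.3), after filterByExpr and TMM scaling (glmQLFit, glmQLFTest, with Benjamini-Hochberg adjustment over all genes tested, called at an adjusted p below 0.05), with all 3 treatments in 1 fit per cell type. T cells and enterocytes were compared with the tag as a block, since both come from the same tissue. Deviations of same-tag libraries from their group means correlated at 0.0727 to 0.304. The study's MAST test treats nuclei as replicates and was not used. Levels are UMIs per 10000 UMIs and are not corrected for gene length, so they are compared within a gene only. Shares carry exact Clopper-Pearson 95% intervals, and a count of 0 allows up to 3 counts. The fits were checked on simulated data. All else ran in Python 3.11.15 (scanpy 1.11.5, scipy 1.17.1, pandas 2.3.3, numpy 2.4.6, matplotlib 3.10.9). Scrublet in scanpy called 84 of 9800 nuclei (0.857%) doublets, 8 of them T cell nuclei, all in GR23, and they were kept.

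The members and the marker and pathway lists were chosen with earlier results of these data known. Named genes are the members, up to 3 pathway genes per direction and comparison with the smallest unadjusted p, the 10 leading genes of class II nuclei (not all are reported here), the 5 genes most like Cd74 per cell type, and markers. Rfx5 was named after its value was seen. Alternatives were DESeq2 1.42.0, no count filter, each library left out, nuclei with at least 500 genes, doublets left out, T cell marker nuclei, no replicate block and thinning to 300 UMIs.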

Additional observations from a re-analysis of the deposited data

How the results depend on the processing

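The 6 class II genes kept their direction between cell types in every alternative that could estimate them, and all 6 were called with DESeq2, without the count filter, without the replicate block (3145 genes called in all, against 3112), without doublets and with nuclei of at least 500 genes. With libraries left out, calls between cell types ran from 2307 to 4204 genes, and the folds ran from 3.73 to 4.46 for Cd74, 4.47 to 5.30 for Ciita, 4.99 to 5.66 for RT1-Ba, 3.48 to 4.31 for RT1-Bb, 2.71 to 3.69 for RT1-Da and 4.33 to 5.29 for RT1-Db1, where the last 3 ranges leave out the fit without GR12 and that of RT1-Da also the fit without GR41, in which these folds could not be estimated. The block rests on the shared tissue and changed no call of a member. Counts of called genes in the treatment comparisons moved with the tool and the filter, and the cause was not tested: in enterocytes DESeq2 called 50 genes for PL8177 and 107 for sham, and without the filter edgeR called 8 and 51, while in T cells it called 4 and 33. With libraries left out, sham enterocytes gave 0 to 8 calls and the sham interaction 0 to 3. No member was among the calls in any of the treatment comparisons.

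Cd74 changed sign with nuclei of at least 500 genes, to 0.063 in sham enterocytes and 0.28 in PL8177 T cells, and ran from -2.20 to 0.38 in sham enterocytes with libraries left out. Ciita in sham T cells ran from -0.14 to 0.95 over the fits that tested it, those without GR13, GR15, GR22, GR41 or GR44. Thinning to 300 UMIs, which removes counts by construction, gave a class II share of 6.60% in T cell and 0.669% in enterocyte nuclei, 63 T cell nuclei with a class II UMI, 5 with 3 or more genes, and a placebo T cell level of 21.6 UMIs per 10000, set by 37 UMIs in 2 nuclei of GR22. Members whose shares lay apart from placebo then numbered 1 in sham T cells, 1 in PL8177 T cells and 0 in PL8177 enterocytes. The share of all genes that lay apart after thinning was not counted, so nothing was read from these counts. With at least 500 genes the class II shares were 17.1% and 3.17%.

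With libraries left out, the share with any class II UMI ran from 12.1% to 22.8% in T cells and from 1.95% to 2.95% in enterocytes. T cell nuclei with a class II UMI ran from 76 (without GR23) to 143 and those with 3 or more genes from 21 (without GR12) to 31. Members lying apart from placebo ran from 0 to 4 in sham T cells, 0 to 1 in PL8177 T cells, 0 to 3 in sham enterocytes and 3 to 4 in PL8177 enterocytes. Ranges of fewer libraries lie apart more readily. The share of all genes that did so was not counted in these sets, so nothing was read from these counts. Mean summed levels ran from 3.00 to 5.91 (sham), 5.57 to 9.90 (PL8177) and 5.00 to 9.73 (placebo) in T cells, and from 0.117 to 0.208, 0.0367 to 0.168 and 0.190 to 0.460 in enterocytes. Depth limits the T cell tables of GR13, GR44, GR41 and GR15 most, where 0 UMIs of a gene allow up to 3.72, 1.47, 1.25 and 1.14 UMIs per 10000.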

Other observations

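Across the 9 libraries, the genes whose level moved most like that of Cd74 were listed by Pearson correlation of log2 CPM, as a description of libraries that differ in depth and composition. In the T cell tables, among 1826 genes, they were Tbc1d2b and Arfgef2 (r = 0.84 each) and Ate1, Ell2 and Tnpo1 (r = 0.80 each). In the enterocyte tables, among 9423 genes, they were Slc4a1ap (r = 0.96), Taz (r = 0.93), Ibtk (r = 0.90), Ddx52 and RGD1304728 (r = 0.89 each). The lists of 5 shared no gene.

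The make-up of the class II UMIs differed between the cell types as measured. Cd74 took 36.5% of the class II UMIs in the T cell tables and 39.8% in the enterocyte tables, Ciita 21.6% and 11.4%, and RT1-Bb 12.0% and 20.1%. These shares pool libraries and were not tested.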
